A study of Homo sapiens with 12 samples.

Results

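The BCL2 family and the inhibitors of apoptosis set the threshold at which a cell dies by apoptosis, and 10 of their genes were followed here in melanoma cells that expressed different forms of the receptor tyrosine kinase TYRO3. The 10 genes were chosen by name and role from the 35579 genes with a quantified transcript, with earlier results of these data known. They are 4 anti-apoptotic genes (BCL2, BCL2L1, MCL1 and BCL2A1), 3 BH3-only genes (BCL2L11, PMAIP1 and BBC3), the effector BAX, and the inhibitors of apoptosis BIRC7 and XIAP. All 10 passed the filter on low counts that left 15098 genes for testing. The cells were WM-266-4, a human melanoma cell line, in which endogenous TYRO3 was stably knocked down with a lentiviral shRNA under puromycin selection in every group, the controls included. The cells were then transfected with a pEZY-myc-his plasmid and starved of serum overnight before their mRNA was sequenced. The control group received the plasmid with GFP according to the sample labels, whereas the text of the study also describes an empty plasmid. The other groups received TYRO3 wild-type (WT), TYRO3 ΔGS with the substitution I449A, or TYRO3 ΔADAM with the substitutions P408A, L409P and G419P. Each of the 4 groups has 1 library in each of 3 numbered experiments, 12 libraries in all. TYRO3 was thus driven from a plasmid in a stable knock-down line, and no source used here says that the experiments used separately derived lines.

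TYRO3 is a membrane receptor of the TAM family. Its extracellular part can be shed by ADAM proteases, after which the γ-secretase complex cuts within the membrane and releases the intracellular domain. ΔADAM is built to resist the first cut and ΔGS the second. In the mitochondrial route to apoptosis, BAX perforates the outer mitochondrial membrane unless anti-apoptotic relatives hold it or its activators in check. BH3-only proteins release that hold: BIM, the product of BCL2L11, binds all anti-apoptotic members, NOXA, the product of PMAIP1, binds mainly MCL1 and the BCL2A1 product, and PUMA is the product of BBC3. Inhibitors of apoptosis act further down, XIAP by blocking caspases directly and BIRC7, also known as livin or ML-IAP, chiefly by binding SMAC, the antagonist that would otherwise displace XIAP from caspases. In melanoma, BCL2, BCL2A1 and BIRC7 are known targets of the melanocyte transcription factor MITF.

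Libraries held between 4008293 and 38184838 estimated counts, and the median was 23302002. The shallowest was the control of experiment 1, and every ratio of experiment 1 given below shares this library. TYRO3 itself measured 47.3 to 56.6 counts-per-million (CPM) in the 3 control libraries and 1181 to 3694 CPM in the 9 TYRO3 libraries. All 8 melanocyte-lineage markers passed the filter. Their summed level in transcripts-per-million (TPM) was 1643 to 1989 in control, 1068 to 1987 in WT, 1096 to 1605 in ΔGS and 1103 to 1659 in ΔADAM. The summed keratinocyte and leukocyte markers stayed below 1 TPM in each library and the endothelial markers below 2 TPM, with 1 keratinocyte marker at 0 in all libraries. The 3 fibroblast markers summed to 69.9 to 87.6 TPM in control and 39.1 to 66.7 TPM in the TYRO3 groups. Nearly all of this was LUM, at a mean of 74.5 TPM in control and 49.1 to 49.6 TPM in the TYRO3 groups. DCN was at 1.89 TPM in control and 0.51 to 0.96 TPM in the TYRO3 groups. PDGFRB was at 1.94 TPM in control and 1.29 to 1.56 TPM in the TYRO3 groups. In CPM the mean of PDGFRB was not lower, at 2.20 in control and 2.27 to 2.85 in the TYRO3 groups. The part of these marker levels in the results below was not tested. In bulk RNA, fewer cells of a type and less RNA per cell cannot be told apart.

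Of the 10 members, 2 were called higher with cleavage-resistant TYRO3 by the criterion given below, and none was called lower. BCL2L1, which encodes the anti-apoptotic protein Bcl-xL, was 1.63-fold higher with ΔGS and 1.52-fold higher with ΔADAM than in control. PMAIP1, which encodes its pro-apoptotic relative NOXA, was 1.92-fold higher with ΔGS and 1.99-fold higher with ΔADAM. With WT TYRO3 no member was called, although BCL2L1 was 1.47-fold and PMAIP1 1.60-fold higher than in control. Neither gene was called between WT and the mean of the variants, where the log2 differences were -0.10 and -0.29. A gene was called at a fold change above 1.5 and an adjusted p of at most 0.05 in edgeR's quasi-likelihood test, with a term for each experiment. By this rule 2 of 10 members were called with ΔGS, where 4.69% of all genes tested were called (708 of 15098), and 2 of 10 with ΔADAM, where it was 5.19% (784). For WT against control it was 0 of 10 members and 2.35% of all genes (355), with 5 members at an unadjusted p below 0.05 and 1, PMAIP1, called by DESeq2. On the adjusted p alone, without the fold criterion, 1 member passed with WT (background 3.58%), 4 with ΔGS (background 8.95%) and 4 with ΔADAM (background 10.2%). The member that passed with WT was BCL2L1. Those that passed with ΔGS and with ΔADAM were BCL2L1, PMAIP1 and MCL1, all higher, and BCL2L11, which was lower. The median log2 fold change of the 10 members was 0.09, 0.22 and 0.12 in the comparisons of WT, ΔGS and ΔADAM with control, where the median of all genes lay within 0.007 of 0. The median size of the change, without its sign, was 0.39, 0.43 and 0.47 for the members and 0.17, 0.19 and 0.19 for all genes. The 3 comparisons share their control libraries and are not independent of each other. Since the members were chosen with earlier results of these data known, setting them against all genes is a description and no independent test.

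**Figure D1:**
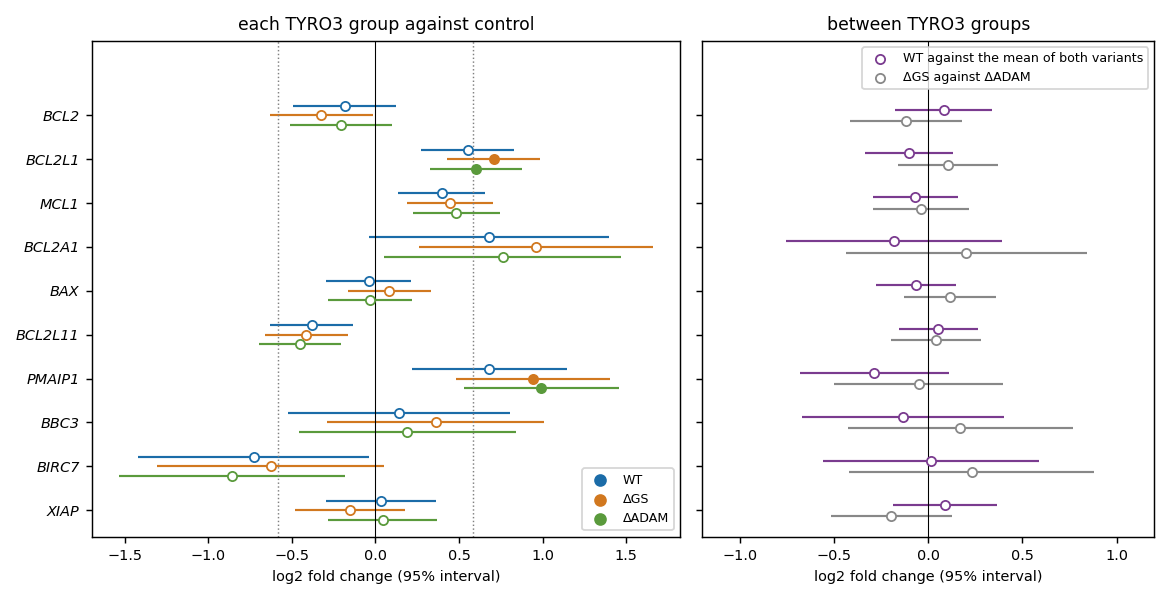
Log2 fold changes of the 10 members (points) with 95% intervals (lines) for each TYRO3 group against control (left) and between TYRO3 groups (right), from 3 libraries per group. Filled points passed both criteria, and the dotted lines mark a 1.5-fold change. BCL2L1 and PMAIP1 have the 4 filled points, and each interval on the right crosses 0.

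These calls depend on how the experiments enter the model. With the experiment as a term of 3 levels, each library was compared with the control of its own experiment. With a coarser term, experiment 1 against experiments 2 and 3 (the split at which the study corrected its values for batch by another method), and so no replicate block, 1 member call remained, PMAIP1 with ΔADAM (adjusted p = 0.0469), and BCL2L1 had adjusted p = 0.0561 with ΔGS. In experiments 2 and 3 alone no member was called, with BCL2L1 at a log2 fold change of 0.62 with ΔGS (adjusted p = 0.0628).

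In the control libraries the members spanned a range from BAX at 102 ± 12.5 TPM (SD, n = 3) to BBC3 at 6.35 ± 1.43 TPM. TPM values are per length of transcript and can be compared between genes, within the limits of how reads were divided among transcripts. In control the short transcript BAX-209, with 383 bases, had a mean of 18.9 TPM within BAX. In CPM, which is not per length, the control means were 44.9 for BAX and 226 for MCL1. BAX and MCL1 (93.4 ± 11.7 TPM) led, and their library ranges overlapped. PMAIP1 followed at 68.4 ± 8.98 TPM, below both ranges. BCL2L1 (25.2 ± 3.0 TPM), BCL2L11 (20.1 ± 9.99) and XIAP (15.9 ± 2.09) formed the middle of the order, each overlapping its neighbour among these. BIRC7 (11.9 ± 1.27), BCL2A1 (8.83 ± 3.24), BCL2 (6.72 ± 1.17) and BBC3 came last, again with overlapping neighbours. Among the anti-apoptotic genes MCL1 was thus the highest, and BCL2A1 and BCL2 were the lowest.

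**Figure D2:**
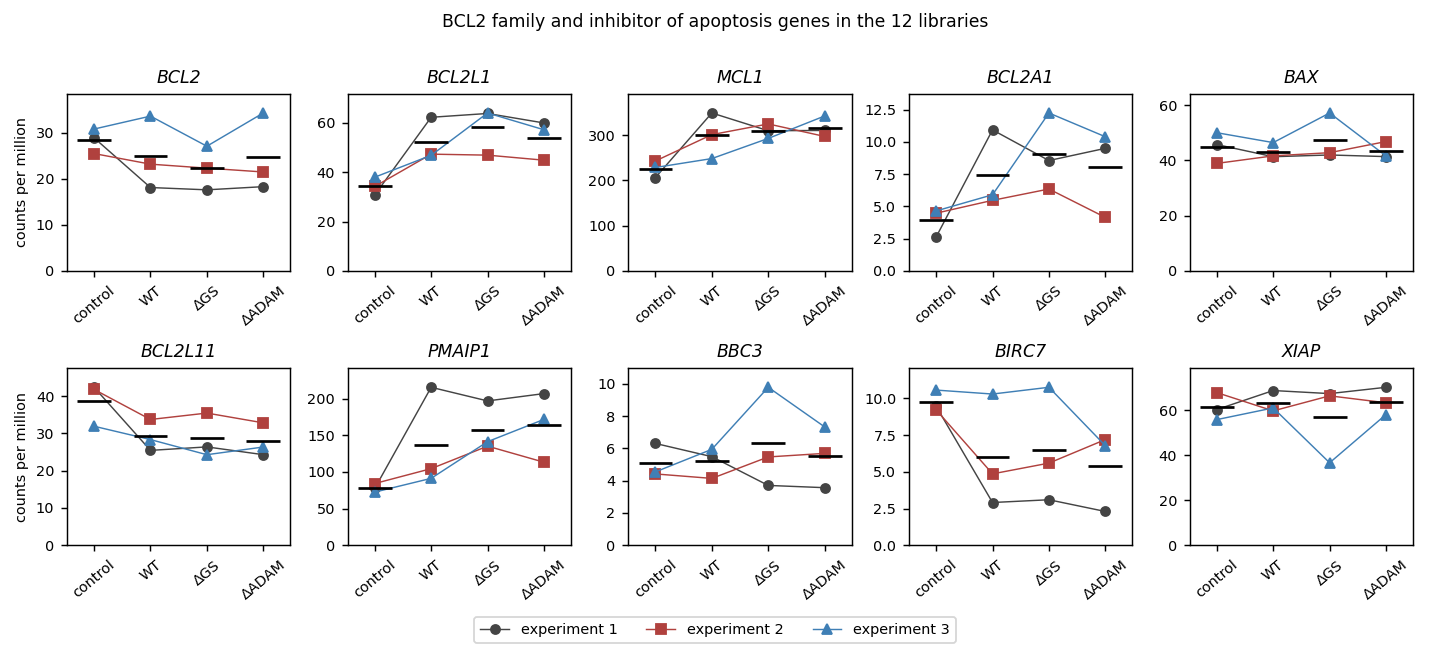
Level of each member in CPM on a linear axis from 0, by group, with 1 line and marker per experiment and a black bar at the mean of 3 libraries. For BCL2L1, MCL1 and PMAIP1 all 9 TYRO3 libraries lie above all 3 control libraries, and BIRC7 lies below its control in experiments 1 and 2 but, for WT and ΔGS, is close to it in experiment 3.

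Among the anti-apoptotic genes, BCL2L1 (ENSG00000171552, chr20:31664452-31723989, minus strand, GRCh38) measured 30.8, 34.2 and 38.0 CPM in the control libraries of experiments 1, 2 and 3. It measured 62.2, 47.3 and 46.8 CPM with WT, 63.8, 46.9 and 64.0 CPM with ΔGS, and 59.9, 44.9 and 57.2 CPM with ΔADAM. All 9 TYRO3 libraries were above all 3 controls. The log2 fold change against control was 0.55 ± 0.13 (SE, adjusted p = 0.0419) with WT, 0.71 ± 0.13 (adjusted p = 0.0110) with ΔGS and 0.60 ± 0.13 (adjusted p = 0.0180) with ΔADAM. The WT value corresponds to 1.47-fold and missed the fold criterion, and the ΔADAM value, 1.52-fold, was just past it. The within-experiment folds were largest in experiment 1, at 1.95 to 2.07, and ranged from 1.23 to 1.69 in experiments 2 and 3. Without the shallow control library of experiment 1 the ΔGS call stayed (log2 fold change 0.59, adjusted p = 0.0287) and the ΔADAM call was lost (0.49, adjusted p = 0.0514). The ΔADAM call was also lost without the ΔADAM library of experiment 1 (0.60, adjusted p = 0.0739) or of experiment 3 (0.57, adjusted p = 0.105). WT was called without the WT library of experiment 3 (0.68, adjusted p = 0.0161) or the control of experiment 2 (0.67, adjusted p = 0.0464). BCL2L1 with ΔGS was the only call among the members that held with each of the 12 libraries left out in turn.

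BCL2L1 is spliced into a long and a short coding form with opposite functions, Bcl-xL and Bcl-xS, which differ in the donor site of exon 2. The bases around this junction are shown because they are what separates the 2 forms in the reads. Lower case is the end of exon 2 and capitals the start of exon 3, from GENCODE 29 (GRCh38, chromosome 20, minus strand). In BCL2L1-201, with 233 codons, exon 2 ends at 31721655, and in BCL2L1-202, with 170 codons, it ends at 31721844, while exon 3 starts at 31666086 in both.
BCL2L1-201 (Bcl-xL): gagaacggcggctggGATACTTTTGTGGAA
BCL2L1-202 (Bcl-xS): cagagctttgaacagGATACTTTTGTGGAA
BCL2L1-201 held 61.0% of the TPM of the gene averaged over the 12 libraries. It measured 8.43, 16.8 and 17.3 TPM in the controls of experiments 1, 2 and 3, of which the first is the shallowest library. In the TYRO3 libraries it measured 19.0 to 28.5 TPM. How many of all transcripts separate in this way was not counted. BCL2L1-201 was not called in the quasi-likelihood test (adjusted p = 0.771, 0.531 and 0.691 with WT, ΔGS and ΔADAM). BCL2L1-203, a second transcript with 233 codons, held 13.2% and BCL2L1-205, with 188 codons, 10.5%. The short form BCL2L1-202, named here after its values were seen, held 2.09% on average, was at 0 in 2 libraries and reached 2.78 TPM at most.

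MCL1 (ENSG00000143384, chr1:150574551-150579738, minus strand), whose product is short-lived and is the main partner of NOXA, measured 206, 243 and 229 CPM in the controls. It measured 349, 301 and 248 CPM with WT, 309.8, 325 and 293 CPM with ΔGS, and 310.4, 297 and 342 CPM with ΔADAM. Each TYRO3 library was above each control, by the narrowest margin for WT in experiment 3. The log2 fold change was 0.40 ± 0.12 (adjusted p = 0.0866) with WT, 0.45 ± 0.12 (adjusted p = 0.0412) with ΔGS and 0.48 ± 0.12 (adjusted p = 0.0296) with ΔADAM. The largest of these is 1.40-fold, so MCL1 did not reach the fold criterion in any of the 3 comparisons. Without the control of experiment 1 its adjusted p was 0.148 with ΔGS and 0.116 with ΔADAM. Of all genes tested, 10.2% had 9 TYRO3 libraries on one side of the 3 controls without overlap, and 3 of the 10 members did, BCL2L1, MCL1 and PMAIP1.

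MCL1 is also spliced into a long anti-apoptotic and a short pro-apoptotic form, which lacks exon 2. Its junctions are shown for the same reason, with capitals at the start of the later exon (GRCh38, chromosome 1, minus strand). The long form joins 150578843 to 150578491 and 150578244 to 150577491, and the short form joins 150578843 to 150577491.
MCL1-202 exons 1 and 2: agacggccttccaagGCATGCTTCGGAAAC
MCL1-202 exons 2 and 3: aaacaaagaggctggGATGGGTTTGTGGAG
MCL1-201 exons 1 and 2: agacggccttccaagGATGGGTTTGTGGAG
The long form MCL1-202, with 350 codons, held 82.5% of the TPM of MCL1, and the non-coding MCL1-203 held 10.1%. MCL1-202 measured 62.1, 95.2 and 81.8 TPM in the controls and 74.1 to 132 TPM in the TYRO3 libraries, and these ranges overlapped. The short form MCL1-201, with 271 codons and also named after its values were seen, held 0.96% and was at 0 in 2 libraries.

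BCL2A1 (ENSG00000140379, chr15:79960889-79971446, minus strand), an anti-apoptotic gene of the NF-κB and MITF programmes, was low throughout. It measured 2.63, 4.48 and 4.65 CPM in the controls, of which the first rests on 10 counts. It measured 10.9, 5.47 and 5.90 CPM with WT, 8.56, 6.35 and 12.2 CPM with ΔGS, and 9.50, 4.15 and 10.4 CPM with ΔADAM. It was above its own control in 8 of 9 TYRO3 libraries, the exception being ΔADAM in experiment 2. The log2 fold changes of 0.68 (adjusted p = 0.260), 0.96 (adjusted p = 0.0831) and 0.76 (adjusted p = 0.153) with WT, ΔGS and ΔADAM were not called, and their intervals were wide, from 0.26 to 1.66 for ΔGS. BCL2A1-201, with 175 codons, held 94.2% of the TPM of the gene.

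BCL2 itself (ENSG00000171791, chr18:63123346-63320128, minus strand) measured 28.9, 25.5 and 30.8 CPM in the controls. It measured 18.1, 23.2 and 33.7 CPM with WT, 17.6, 22.3 and 27.1 CPM with ΔGS, and 18.3, 21.5 and 34.3 CPM with ΔADAM. The libraries of experiment 1 were low and those of experiment 3 close to their control, and the groups overlapped. Its log2 fold changes were -0.18, -0.32 and -0.21 with adjusted p of 0.490, 0.168 and 0.371. The 3 coding transcripts above 10% of its TPM were BCL2-201 (57.7%), BCL2-202 (23.9%) and BCL2-203 (15.5%).

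Among the BH3-only genes, PMAIP1 (ENSG00000141682, chr18:59899948-59904306, plus strand) measured 77.6, 84.2 and 72.5 CPM in the controls. It measured 215.5, 104.5 and 91.3 CPM with WT, 196.9, 135.2 and 141 CPM with ΔGS, and 207, 113 and 172 CPM with ΔADAM. All 9 TYRO3 libraries were above all controls, and the 3 of experiment 1 were the highest. The log2 fold change was 0.68 ± 0.21 (adjusted p = 0.0956) with WT, 0.94 ± 0.21 (adjusted p = 0.0226) with ΔGS and 0.99 ± 0.21 (adjusted p = 0.0186) with ΔADAM. Within experiments, the fold with WT was 2.78, 1.24 and 1.26, that with ΔGS 2.54, 1.61 and 1.95, and that with ΔADAM 2.67, 1.35 and 2.37. Both calls were lost without the control of experiment 1, with 0.75 (adjusted p = 0.0813) for ΔGS and 0.81 (adjusted p = 0.0693) for ΔADAM, and without the control of experiment 3, with 0.95 (adjusted p = 0.0733) and 0.99 (adjusted p = 0.0606). The ΔGS call was also lost without any 1 of the 3 ΔGS libraries, at 0.91 to 0.97 with adjusted p of 0.0529, 0.0775 and 0.0541 for experiments 1, 2 and 3. The ΔADAM call was lost without the ΔADAM library of experiment 1 (1.03, adjusted p = 0.0665) or 3 (0.79, adjusted p = 0.119). WT was called without its library of experiment 3 (0.88, adjusted p = 0.0388).

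NOXA is among the smallest proteins of the family, and its whole coding sequence can be shown. It is given from PMAIP1-202, bases 231 to 395 of the transcript in GENCODE 29, with the start and stop codons in capitals.
PMAIP1-202: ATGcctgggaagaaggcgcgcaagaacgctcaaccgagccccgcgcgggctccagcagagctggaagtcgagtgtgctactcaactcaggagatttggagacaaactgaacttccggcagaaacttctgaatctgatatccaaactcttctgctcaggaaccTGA
This transcript of 54 codons held 75.3% of the TPM of PMAIP1, and PMAIP1-201, with 136 codons, held 22.5%. PMAIP1-202 measured 45.8, 62.9 and 47.5 TPM in the controls and 61.0 to 147 TPM in the TYRO3 libraries. The lowest of these, WT in experiment 3, lay below the control of experiment 2.

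BCL2L11 (ENSG00000153094, chr2:111119378-111168447, plus strand), the gene of BIM, differed in the opposite direction. It measured 42.3, 41.8 and 31.9 CPM in the controls, 25.4, 33.7 and 28.3 CPM with WT, 26.4, 35.4 and 24.3 CPM with ΔGS, and 24.3, 32.8 and 26.3 CPM with ΔADAM. All 9 TYRO3 libraries were below the control of their own experiment, although those of experiment 2 overlapped the control of experiment 3. The log2 fold change was -0.38 ± 0.11 (adjusted p = 0.0855) with WT, -0.41 ± 0.11 (adjusted p = 0.0448) with ΔGS and -0.45 ± 0.11 (adjusted p = 0.0304) with ΔADAM, or at most 1.37-fold lower, which is short of the fold criterion. Without the control of experiment 1 the adjusted p was 0.148 with ΔGS and 0.112 with ΔADAM. The gene has 25 annotated transcripts. BCL2L11-206, with 198 codons, the length of the BIM-EL form, held 36.5% of the TPM, BCL2L11-220, with 109 codons, 17.3%, and BCL2L11-225, with 82 codons, 10.1%. The last of these measured 12.3 TPM in the control library of experiment 1 and at most 2.40 TPM in any other, so that its share comes from the shallowest library.

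BBC3 (ENSG00000105327, chr19:47220822-47232766, minus strand) was low and without a direction shared by the experiments. It measured 6.31, 4.42 and 4.55 CPM in the controls and 3.57 to 9.80 CPM in the TYRO3 libraries, with 5 of 9 above their own control. Its level with ΔGS was 0.59-fold of control in experiment 1 and 2.15-fold in experiment 3. The log2 fold changes were 0.14 (adjusted p = 0.844), 0.36 (adjusted p = 0.477) and 0.19 (adjusted p = 0.735) with WT, ΔGS and ΔADAM. BBC3-202 held 35.5% of the TPM of the gene, BBC3-201 24.4%, BBC3-205 23.75% and BBC3-203 10.3%.

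The effector BAX (ENSG00000087088, chr19:48954815-48961798, plus strand) stayed close to control. It measured 45.8, 38.9 and 50.1 CPM in the controls, and 41.4 to 57.2 CPM in the TYRO3 libraries with a median of 42.0 CPM. Its log2 fold changes were -0.04, 0.08 and -0.03 with WT, ΔGS and ΔADAM, and the 3 intervals together reached from -0.29 to 0.33. A change of BAX above 1.5-fold (0.585 on the log2 scale) therefore lay outside each of the 3 intervals. BAX-202 held 36.3% of its TPM, BAX-201 16.45%, BAX-209 12.1% and BAX-211 11.25%. BAX-209 measured 26.2, 11.9 and 18.6 TPM in the controls and 0, 0 and 17.4 TPM with WT. With ΔGS it measured 6.3 to 23.0 TPM and with ΔADAM 2.45 to 18.8 TPM. It was not called in the quasi-likelihood test (adjusted p = 0.879, 0.956 and 0.893 with WT, ΔGS and ΔADAM).

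Of the inhibitors of apoptosis, BIRC7 (ENSG00000101197, chr20:63235883-63240507, plus strand) measured 9.47, 9.22 and 10.6 CPM in the controls. With WT it measured 2.91, 4.86 and 10.3 CPM, with ΔGS 3.10, 5.60 and 10.8 CPM, and with ΔADAM 2.30, 7.20 and 6.78 CPM. The levels were below control in experiments 1 and 2, but those of WT and ΔGS in experiment 3 were at the level of their control. The log2 fold changes of -0.73 (95% interval -1.42 to -0.04, adjusted p = 0.209), -0.63 (adjusted p = 0.222) and -0.86 (adjusted p = 0.0993) were not called. BIRC7-201, with 298 codons, held 81.3% of its TPM and BIRC7-202, with 280 codons, held most of the rest. XIAP (ENSG00000101966, chrX:123859724-123913979, plus strand) measured 60.2, 67.7 and 55.8 CPM in the controls and 36.6 to 70.1 CPM in the TYRO3 libraries. The low value of 36.6 CPM was ΔGS in experiment 3, and the other 8 TYRO3 libraries measured 58.0 CPM or more. Its log2 fold changes were 0.03, -0.15 and 0.04, with adjusted p of 0.936, 0.559 and 0.897.

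The opposite directions of BCL2L11 and BCL2L1 can be read within each library as a ratio of counts, which needs no scaling between libraries. This ratio restates the values of the 2 genes given above and is no separate support for them. BCL2L11 had 1.38, 1.22 and 0.84 counts per count of BCL2L1 in the controls. In the TYRO3 libraries the ratio was 0.41 in each group of experiment 1, 0.71 to 0.76 in experiment 2 and 0.38 to 0.60 in experiment 3. All 9 were below all 3 controls, which follows largely from the directions of the 2 genes. How many other pairs of genes separate in this way was not counted. The ratio of PMAIP1 to MCL1, whose products bind each other, was 0.38, 0.35 and 0.32 in the controls and 0.62 to 0.67 in the TYRO3 libraries of experiment 1. In experiment 2 it was 0.35 with WT, the same as its control to 2 digits, and 0.42 and 0.38 with ΔGS and ΔADAM. In experiment 3 it was 0.37 with WT and 0.48 and 0.50 with ΔGS and ΔADAM.

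WT TYRO3, which can be cleaved, was compared with the mean of ΔGS and ΔADAM, which resist cleavage, and the variants with each other. In each comparison 0 of 10 members were called, as were 0 of the 15098 genes (background 0.0%), while 237 and 216 genes had an unadjusted p below 0.05. The corresponding member counts at an unadjusted p below 0.05 were 0 and 0. DESeq2 called 5 and 1 genes in the 2 comparisons and no member. The difference of PMAIP1 between WT and the variants was -0.29 on the log2 scale, with a 95% interval from -0.68 to 0.11. That of BCL2L1 was -0.10 (interval -0.33 to 0.13), that of MCL1 -0.07 (-0.29 to 0.16) and that of BCL2L11 0.05 (-0.16 to 0.26). For the last 3, a difference of 1.5-fold between WT and the variants lay outside the interval. For PMAIP1, BCL2A1 (-0.76 to 0.39) and BBC3 (-0.67 to 0.40) a 1.5-fold lower level with WT lay within it. BIRC7 was at 0.01 with an interval from -0.56 to 0.59. Between ΔGS and ΔADAM, the differences of BCL2L1 (0.11, interval -0.16 to 0.37), PMAIP1 (-0.05, -0.50 to 0.40) and MCL1 (-0.04, -0.29 to 0.22) were within 1.5-fold over their whole intervals. The calls of BCL2L1 and PMAIP1 with the variants and not with WT are therefore no measured difference between WT and the variants.

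The 10 members have 80 annotated transcripts in the files, of which 48 passed the filter. In the comparisons of WT, ΔGS and ΔADAM with control, 0 of the 48 were called, where 0.00867%, 0.00867% and 0.00578% of the 69182 transcripts tested were called (6, 6 and 4). Of the 48, 4, 5 and 6 had an unadjusted p below 0.05. DESeq2 called 970, 1373 and 1289 of all transcripts, and among those of the members 0 with WT, 2 with ΔGS (BCL2L1-201 and PMAIP1-202) and 1 with ΔADAM (PMAIP1-202). Between TYRO3 groups 0 transcripts were called (0.0%), with 1515 and 1031 of all transcripts and 2 and 2 of the members' at an unadjusted p below 0.05, whereas DESeq2 called 294 and 260, none of a member. BCL2L1-201 held 38.7% to 63.4% of the TPM of BCL2L1 in the controls and 52.7% to 72.3% with WT, which overlap. BBC3-202, with 131 codons and the largest mean share of BBC3 (35.5%), held 57.7% to 64.6% with ΔGS and 3.28% to 46.3% in the other 9 libraries. How many transcripts set 1 group apart in this way was not counted. The whole gene had 85, 138 and 224 counts in the ΔGS libraries. BBC3-202 was not called with ΔGS in the quasi-likelihood test (adjusted p = 0.6625). BBC3-202 was at 5.74 TPM or less in each library, and its share was not tested. The estimates divide reads between overlapping transcripts, so the values of minor transcripts are less certain than the gene totals.

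**Figure D3:**
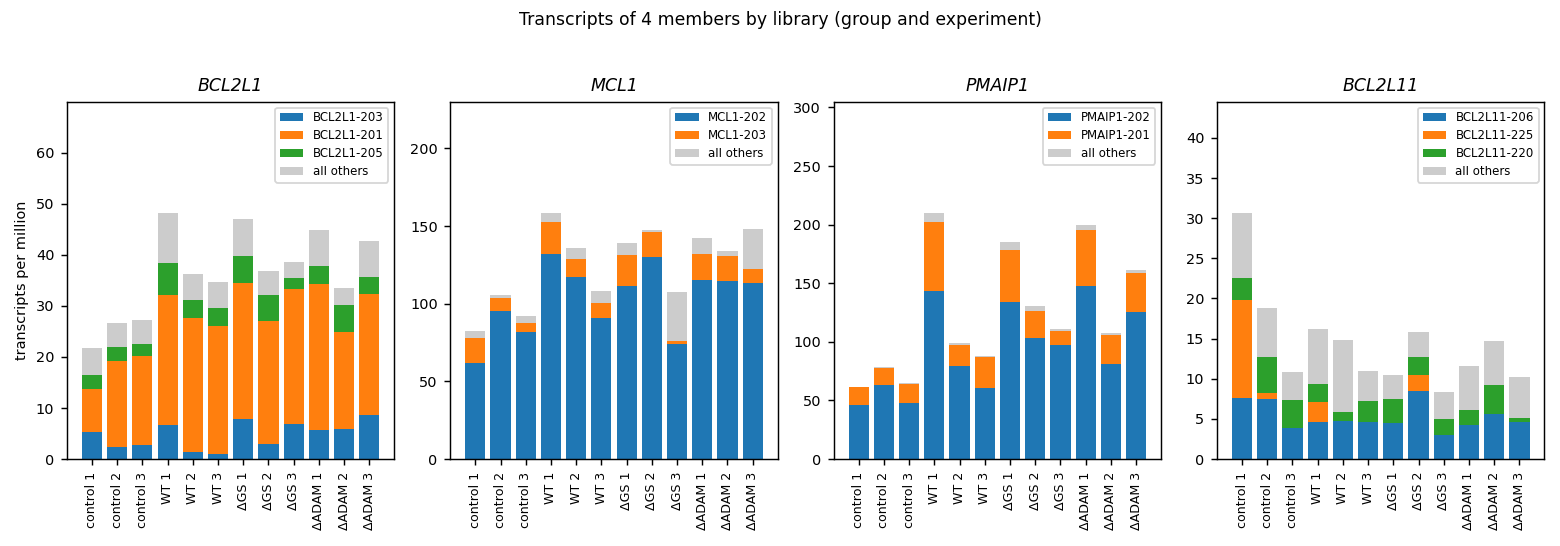
Stacked bars of TPM from 0, for the transcripts that hold at least 10% of their gene (colours) and all others (grey), in the 12 libraries by group and experiment. BCL2L1-201, MCL1-202 and PMAIP1-202 make up most of their genes in nearly all libraries, while BCL2L11 is divided among several transcripts.

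The members were set against 52 other genes of the apoptosis machinery and its regulators, of which 49 passed the filter. With WT 2 were called higher and 0 lower, with ΔGS 4 higher and 1 lower, and with ΔADAM 5 higher and 1 lower, where 2.35%, 4.69% and 5.19% of all genes were called in either direction. The median log2 fold change over the 49 was 0.11, 0.10 and 0.09. None of the 5 other BH3-only genes (BID, BAD, BIK, BMF and HRK), of the 2 other effectors (BAK1 and BOK) or of the 9 genes of the apoptosome and caspase group was called in any of the 5 comparisons. Calls came from the inhibitors of apoptosis and their antagonists, the death receptor pathway and the transcriptional regulators.

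BIRC3, which encodes the NF-κB-induced inhibitor of apoptosis cIAP2, rose with each form of TYRO3. It measured 15.5, 12.6 and 13.8 CPM in the controls and 20.8 to 47.9 CPM in the TYRO3 libraries. Its log2 fold change was 1.22 (adjusted p = 0.00825) with WT, 1.26 (adjusted p = 0.00488) with ΔGS and 1.19 (adjusted p = 0.00593) with ΔADAM. BIRC2, its neighbour and close relative, had log2 fold changes of 0.42, 0.51 and 0.57 (adjusted p = 0.0419, 0.0138 and 0.00774), below the fold criterion, and is named after its values were seen. XAF1, an interferon-induced antagonist of XIAP, had the largest log2 fold change of the 49 in all 3 comparisons with control. It went from 1.84, 4.67 and 2.68 CPM in the controls to 6.53 to 44.6 CPM, and its control value of experiment 1 rests on fewer than 10 counts. Its log2 fold change was 2.40 (adjusted p = 0.00444) with WT, 2.61 (adjusted p = 0.00187) with ΔGS and 2.78 (adjusted p = 0.00143) with ΔADAM. The WT call of BIRC3 was lost without the WT library of experiment 2 (1.09, adjusted p = 0.0541), and the other calls of BIRC3 and those of XAF1 held with each of the 12 libraries left out in turn. XIAP had log2 fold changes of 0.03, -0.15 and 0.04 in the same comparisons.

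In the death receptor pathway, 1 of 10 genes was called with ΔGS and 2 with ΔADAM, against 4.69% and 5.19% of all genes tested. FAS, a death receptor, was 1.53-fold higher with ΔGS (adjusted p = 0.0319). TNFRSF1A, the main TNF receptor, was 1.51-fold higher with ΔADAM (adjusted p = 0.0183), and TNFSF10, the gene of the death ligand TRAIL, 2.88-fold (adjusted p = 0.0365). All 3 genes were also higher in the other TYRO3 groups, without a call. FAS was 1.36-fold higher with WT and 1.35-fold with ΔADAM. TNFRSF1A was 1.43-fold higher with WT (adjusted p = 0.0509) and 1.47-fold with ΔGS (adjusted p = 0.0234). TNFSF10 was 2.64-fold higher with WT and 2.44-fold with ΔGS, and DESeq2 and the fit without a filter called both. TNFSF10 measured 0.79, 1.75 and 0.71 CPM in the controls, and with ΔADAM 1.98, 8.57 and 0.80 CPM, with the largest ratio in experiment 2 and little difference in experiment 3. Its control value of experiment 1 also rests on fewer than 10 counts. None of the 3 calls in the quasi-likelihood test held throughout when libraries were left out in turn. That of FAS was lost without any 1 of 6 libraries (the 3 controls, ΔGS of experiments 1 and 2 and ΔADAM of experiment 1), at log2 fold changes of 0.51 to 0.72 and adjusted p of 0.0533 to 0.119. That of TNFRSF1A was lost without any 1 of 5 (the controls of experiments 1 and 3, ΔADAM of experiments 1 and 3 and ΔGS of experiment 3), at 0.48 to 0.58. That of TNFSF10 was lost without any 1 of 6 (the 3 controls, ΔADAM of experiments 1 and 2 and WT of experiment 2), at 0.85 to 1.79 and adjusted p of 0.0529 to 0.240.

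Of the 9 transcriptional regulators, ATF4 and MITF were called with ΔGS and ΔADAM. ATF4, the effector of the integrated stress response and a known activator of PMAIP1, measured 246, 211 and 282 CPM in the controls. It measured 499, 254 and 453 CPM with WT, 389.8, 385.5 and 882 CPM with ΔGS, and 431.5, 350.4 and 761 CPM with ΔADAM. The log2 fold change was 0.67 (adjusted p = 0.0999), 1.07 (adjusted p = 0.0166) and 0.98 (adjusted p = 0.0199). DESeq2 and the fit without a filter also called ATF4 and MITF with WT, with DESeq2's adjusted p at 0.0155 and 0.00375. MITF measured 305.9, 305.5 and 337 CPM in the controls. It measured 95, 230.3 and 254 CPM with WT, 123, 208 and 156.5 CPM with ΔGS, and 105, 214 and 157 CPM with ΔADAM. Its log2 fold change was -0.81 (adjusted p = 0.0671), -1.01 (adjusted p = 0.0215) and -1.06 (adjusted p = 0.0177). All 9 TYRO3 libraries were below the 3 controls, and those of experiment 1 were the lowest.

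The ATF4 call with ΔGS was lost without the control of experiment 1 or 3 or ΔGS of experiment 2 (0.90 to 1.10, adjusted p = 0.0576 to 0.0666). With ΔADAM it was lost without the control or the ΔADAM library of experiment 1 or 3 (0.81 to 1.09, adjusted p = 0.0542 to 0.116). The MITF call with ΔGS was lost without the control of experiment 1 or 3 or any 1 ΔGS library (-1.06 to -0.70, adjusted p = 0.0552 to 0.0920), and that with ΔADAM without the control of experiment 1 or ΔADAM of experiment 1 or 3 (-0.99 to -0.76, adjusted p = 0.0736 to 0.111). With the coarser term for experiment 1 against experiments 2 and 3, 2 of the 13 calls of other apoptosis genes remained, BIRC3 and MITF with ΔADAM. In experiments 2 and 3 alone 5 remained, those of XAF1 and ATF4 with both variants and of BIRC3 with ΔADAM. Limma on log2 TPM left 8, losing both MITF calls (adjusted p = 0.0505 with ΔGS and 0.0561 with ΔADAM at a pseudocount of 1) and those of FAS, TNFRSF1A and TNFSF10. A fit of only the groups compared left 9, losing both WT calls, BIRC3 (adjusted p = 0.0764) and XAF1 (adjusted p = 0.0726), and those of FAS and TNFSF10. With at least 10 counts in every library XAF1 and TNFSF10 were not tested.

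**Figure D4:**
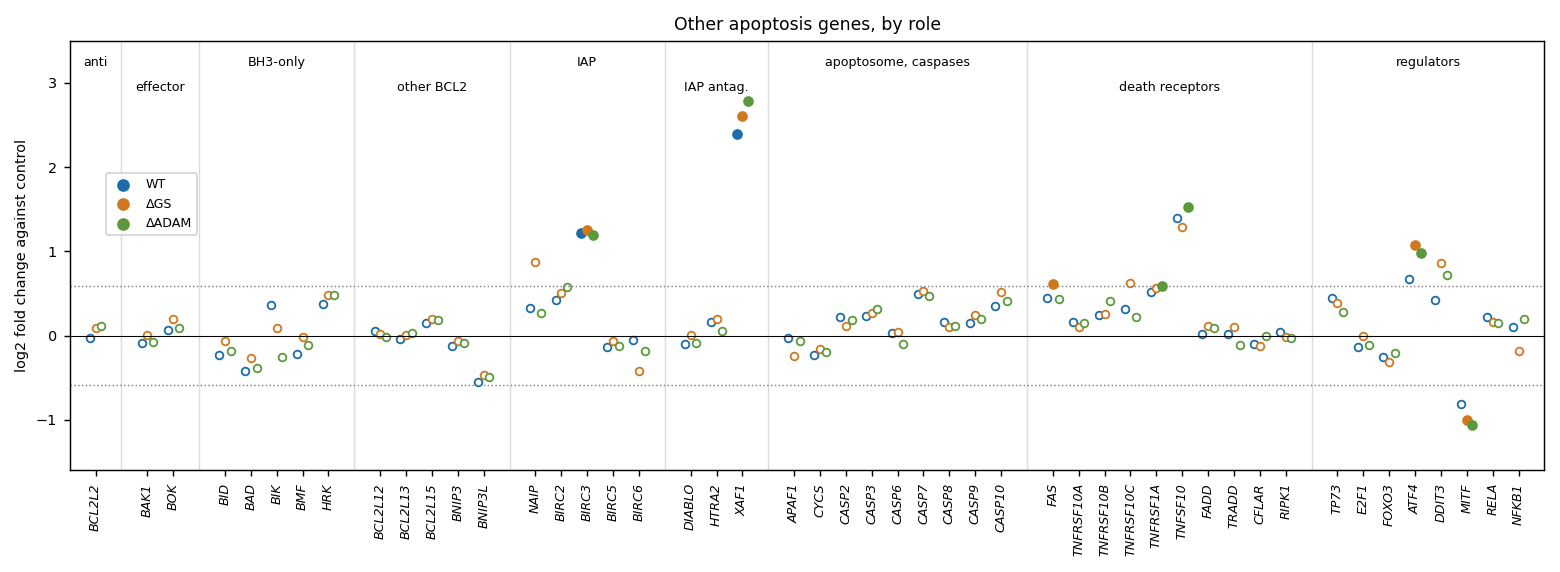
Log2 fold change against control of 48 of the 49 other apoptosis genes tested, grouped by role, with 1 point per TYRO3 group. Filled points passed both criteria and dotted lines mark a 1.5-fold change. The filled points are those of BIRC3, XAF1, FAS, TNFRSF1A, TNFSF10, ATF4 and MITF.

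Since PMAIP1, BCL2A1 and BIRC7 are known or proposed targets of ATF4, NF-κB or MITF, the 250 bases before their RefSeq start and 50 after it (GRCh38.p14) were searched for 4 short motifs on both strands. RefSeq windows were at hand for 9 of the 10 members, 12 windows in all, and MCL1 had none. The motifs were the E-box CACGTG, the M-box core CATGTG, the C/EBP-ATF element TGATGNAA and the half-site TGACGT of the cAMP response element, the last of which was added after the windows had been seen. No NF-κB site was among them, so such sites were not searched for. The 4 motifs are found in 7.26%, 11.1%, 3.62% and 7.98% of the 35116 windows in the table. Matches are in capitals in the sequences below, which run 5′ to 3′ on the strand of the gene.

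The PMAIP1 window held 1 half-site, read here as its reverse complement, 56 bases before the start. The 202 bases before the first GENCODE exon, chr18:59899746-59899947 on the plus strand, are shown.
PMAIP1: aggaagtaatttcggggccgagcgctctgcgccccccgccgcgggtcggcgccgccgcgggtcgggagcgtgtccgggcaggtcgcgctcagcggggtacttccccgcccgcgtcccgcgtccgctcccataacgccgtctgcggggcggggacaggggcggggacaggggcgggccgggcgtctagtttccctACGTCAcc
The BIRC7 window held an E-box at -92 and an M-box core at -27. The 250 bases before its start are chr20:63235655-63235904 on the plus strand.
BIRC7: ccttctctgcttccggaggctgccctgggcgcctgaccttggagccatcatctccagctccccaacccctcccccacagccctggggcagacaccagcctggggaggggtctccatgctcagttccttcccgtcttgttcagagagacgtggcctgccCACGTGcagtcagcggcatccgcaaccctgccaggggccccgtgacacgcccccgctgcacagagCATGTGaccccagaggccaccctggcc
The BCL2A1 window held a C/EBP-ATF element at -63 and an M-box core at -25. These stretches of 30 bases lie at chr15:79971241-79971270 and chr15:79971203-79971232 on the minus strand, within the first exon of BCL2A1-201 in GENCODE 29.
BCL2A1, C/EBP-ATF element: atattataaagTGATGCAAacagaaattcc
BCL2A1, M-box core: ccatgtatcatCATGTGtcataactcagtc
BAX, which was not called, held 4 E-boxes, at -138, -93, -45 and -14, and BBC3 held 1 at -232. XIAP, also not called, held an M-box core at 15 after the start in 1 of its 3 windows, a half-site at 7 after the start in another and an M-box core at -91 in the last. The windows of BCL2, BCL2L1 and BCL2L11 held none of the 4 motifs. A match describes these letters only, and binding was not measured.

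BCL2L1 had the smallest adjusted p of the members against control. The 5 genes whose level was most like it, by Pearson's r of log2 CPM within experiments over the 12 libraries and among 9951 genes with a mean of at least 10 CPM, were PLAUR (0.993), TSPY4 (0.988), KRT81 (0.987), NDRG1 (0.986) and TFPI2 (0.985). TSPY4 has near-identical copies and KRT81 close paralogs, so that the assignment of their reads is uncertain. Of the other quantified genes 1 overlaps a member, AL121601.2, a pseudogene on the strand opposite to XIAP, at 0 to 0.055 CPM, and the strand setting of the counting is not given in the sources used here.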

How the data were processed

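Estimated counts and TPM values per transcript were deposited for the 12 libraries. The authors trimmed paired-end reads with PRINSEQ and Trimmomatic 0.33 and ran kallisto 0.46.0 against Ensembl 96 (GRCh38). The batch correction that the study describes is not in these files. Libraries were grouped by their labels. Transcripts were matched to GENCODE 29 without version (169797 of 188753, with 97.4% to 97.5% of the counts per library) and the estimated counts were summed per gene and rounded.

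Counts, scaled by TMM and filtered by filterByExpr (minimum count 10, minimum total 15), entered edgeR 4.0.16 (R 4.3.3) and its quasi-likelihood test, with terms for group and for each of the 3 experiments. The experiments pair the libraries by their labels, and deviations of libraries of 1 experiment correlated at 0.268 to 0.817. P-values were adjusted by Benjamini-Hochberg over all genes. No source names separate cultures beyond the experiments, so p-values measure the spread between these libraries. Alternatives changed the size factors, the filter, the term for experiments, the libraries in the fit and the test (DESeq2 1.42.0, or limma 3.58.1 on log2 TPM, pseudocounts 1 and 0.1), and those of the 7 other apoptosis genes named were added after seeing the data. A fold change over 1.5 at an adjusted p of at most 0.05 was called. The procedure was tested on simulated data drawn without differences between experiments, so that test does not cover the term for experiments.

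The members, gene lists and motifs were chosen with earlier results of these data known. Named were all members, their transcripts with at least 10% of the TPM of the gene, other apoptosis genes called in any comparison, and the 5 genes most like the leading member. Values of 1 of the other apoptosis genes are not reported here. Promoter windows are from RefSeq. Python 3.11.15, pandas 2.3.3 and matplotlib 3.10.9 made tables and figures.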

Additional observations from a re-analysis of the deposited data

How the results depend on the processing

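Counts depended on the term for the experiments, which pairs the libraries, and on the test. Values follow the order WT, ΔGS and ΔADAM against control, where the model called 355, 708 and 784 genes, 0, 2 and 2 members and 6, 6 and 4 transcripts. With no replicate block but experiment 1 set against experiments 2 and 3, it called 6, 69 and 168 genes and 0, 0 and 1 members. With no replicate block and no batch term it called 3, 4 and 5 genes, 0, 0 and 0 members and 0, 0 and 0 transcripts. Experiments 2 and 3 alone gave 47, 189 and 218 genes, 0, 0 and 0 members and 0, 0 and 0 transcripts, with fewer samples. A fit of only the groups compared called 30 genes with WT and 469 with ΔGS. Without a threshold on the fold change 541, 1352 and 1537 genes and 1, 4 and 4 members passed. DESeq2 called 610 genes and 1 member with WT, 970, 1373 and 1289 transcripts, 5 genes and 294 transcripts between WT and the variants, and 1 gene and 260 transcripts between ΔGS and ΔADAM. Without a filter on low counts 577 genes and 1 member were called with WT, 2 genes between WT and the variants and 7 transcripts with ΔADAM. At least 10 counts in every library left 21, 68 and 60 transcripts called, with fewer transcripts tested. Limma on log2 TPM called 233, 418 and 499 genes with a pseudocount of 1 and 228, 423 and 518 with 0.1. Where no construction is named, the cause was not tested.

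With each of the 12 libraries left out in turn, called genes ranged from 79 to 606, 269 to 777 and 198 to 870, members from 0 to 2, 1 to 3 and 0 to 3, and transcripts from 0 to 3, 0 to 3 and 0 to 5. Between ΔGS and ΔADAM 0 to 1 genes were called. BCL2A1 was called with ΔGS without the control of experiment 2 (1.41, adjusted p = 0.0428) and BIRC7 with ΔADAM without ΔADAM of experiment 2 (-1.24, adjusted p = 0.0472), and both also under DESeq2 and without a filter. MCL1 was called with ΔADAM under limma (0.60 with a pseudocount of 1 and 0.61 with 0.1, adjusted p = 0.0395 in both).

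Against control, 21 of the 30 log2 fold changes of members kept their sign in all 22 alternatives. Those that changed sign when a library was left out ranged, with WT, from -0.16 to 0.39 for BBC3, -0.13 to 0.024 for BAX and -0.091 to 0.14 for XIAP. With ΔGS the range was -0.026 to 0.15 for BAX and -0.29 to 0.057 for XIAP. With ΔADAM it was -0.11 to 0.43 for BBC3, -0.16 to 0.092 for BAX and -0.023 to 0.10 for XIAP. Between WT and the variants it was -0.20 to 0.023 for BCL2L1, -0.22 to 0.064 for MCL1, -0.52 to 0.12 for BCL2A1, -0.021 to 0.11 for BCL2L11, -0.38 to 0.0077 for BBC3, -0.26 to 0.18 for BIRC7 and -0.030 to 0.19 for XIAP. Between ΔGS and ΔADAM it was -0.11 to 0.078 for MCL1, -0.026 to 0.40 for BCL2A1, -0.029 to 0.10 for BCL2L11, -0.21 to 0.15 for PMAIP1, -0.13 to 0.40 for BBC3, -0.0060 to 0.24 for BAX and -0.32 to 0.015 for XIAP. In experiments 2 and 3 alone the sign changed for BCL2 (0.0063), BAX (0.0071) and XIAP (-0.0050) with WT, BAX with ΔADAM (0.029), BIRC7 between WT and the variants (-0.030) and BCL2L11 between ΔGS and ΔADAM (-0.010). Under limma it changed for BAX with ΔADAM (0.029 with both pseudocounts), BBC3 between WT and the variants (0.022 and 0.033) and BCL2L11 between ΔGS and ΔADAM (-0.10 and -0.11). None of these values was called. No member was called between TYRO3 groups under any alternative (0 calls).

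The shallow control of experiment 1 limits the lowest members most, since BCL2A1 rests there on 10 counts, and 3 libraries per group leave wide intervals for BCL2A1, BBC3 and BIRC7.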
